A study of Rattus norvegicus with 8 samples.

Results

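The comparison described here is between rat aortic smooth muscle cells transfected with an siRNA against Giver (siGiver) and the same kind of cells transfected with a non-targeting siRNA (siNTC), both stimulated with angiotensin II (Ang II). It asks how the Ang II stimulated state differs between the 2 siRNAs across genes. Its members are 4 of the 8 arrays of the series, 2 for each siRNA, chosen by their titles, and all 20826 of the 31099 probe sets that carry 1 gene symbol. The smooth muscle cells came from the thoracic aorta of Sprague-Dawley rats, all male, and were kept in M199 medium with 10% serum for 2 passages. They received their siRNA for 48 h and then 100 nM Ang II for 3 h. The remaining 4 arrays, 2 per siRNA, had the same transfection and phosphate-buffered saline (PBS) in place of Ang II, and serve here to show which differences were also present without Ang II. All groups were therefore transfected cells in primary culture at low passage, from animals whose age the labels do not give. Whether the 2 arrays of a group stem from separate cultures or animals is not given in the labels. The p-values therefore reflect array-to-array spread that may be technical. The number of arrays limits the precision.

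Ang II, the effector peptide of the renin-angiotensin system, contracts arteries and alters growth, matrix and inflammatory gene expression in smooth muscle. It acts mainly through the type 1 receptor (Agtr1a), a Gq-coupled receptor that raises calcium and, partly through shed ligands of the epidermal growth factor (EGF) receptor, activates the kinase ERK. ERK and serum response factor switch on immediate early genes such as Fos and Egr1 within minutes to hours, and ERK is then dampened by phosphatases and Sprouty proteins that it induces. Giver, the siRNA target, is a long non-coding RNA that Ang II induces in these cells, and it has been studied in relation to oxidative stress and proliferation, with Nox1 and Nr4a3 among the genes examined. Interferon-inducible genes are a separate programme, switched on by transcription factors of the STAT and IRF families.

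Levels are RMA values on a log2 scale, so a difference of 1 is 2-fold, and they compare between arrays for 1 gene, not between genes. After leaving out dim probe sets (mean below 4.81) and keeping the brightest probe set per symbol, 11372 genes were tested with limma. A gene is called higher or lower when its Benjamini-Hochberg adjusted p over all these genes was under 0.05, and errors of differences are standard errors (SE) of the fit. None of the probe sets carries the name Giver, and the depth of the knockdown was not analysed here. In bulk RNA, fewer cells of a type and less RNA per cell cannot be told apart.

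The arrays of a group correlated at 0.998 across probe sets in each of the 4 groups, and none stood apart from its partner. All 7 markers of smooth muscle, the identity in the labels, lay above the filter value. In the siNTC Ang II arrays they ran from Lmod1 (7.79 and 7.86) to Tagln (14.05 and 14.08). Tagln read 14.05 and 14.05 in the siGiver Ang II arrays. The markers were not equal between the groups: of 7 tested, 5 were higher and 1 lower in siGiver cells. Their mean level was 10.21 and 10.23 in the siNTC and 10.61 and 10.64 in the siGiver Ang II arrays. Bright levels were not limited to these markers. The fibroblast markers Lum and Thy1 read 12.21 and 12.21 and 11.59 and 11.72 in the siNTC Ang II arrays, while others such as Fap (4.98 and 4.68) were dim. Of 9 endothelial markers on the array, 1 lay above the filter value, and of 7 T cell markers 2 did. Of 13 macrophage markers 6 did, and the mean level of all 13 was 4.76 and 4.74 in the siNTC and 4.59 and 4.64 in the siGiver Ang II arrays. Among these 6, Cd68 (-0.60 or below, its siGiver level being under the filter value), Cd14 (-0.45 ± 0.053) and C1qc (-0.31 ± 0.054) were lower in siGiver cells on the log2 scale. The Cd68 call was lost without any 1 PBS array (-0.60), without replicate 1 of the siGiver Ang II arrays (-0.27) or replicate 2 of the siNTC Ang II arrays (-0.46). The 9 fibroblast markers all lay above the filter, with 4 higher and 1 lower (0 or 1 lower without 1 Ang II array) in siGiver cells and a mean level of 7.71 and 7.72 against 7.91 and 7.88. Labelling controls also differed by group: 24 probe sets for spiked poly-A transcripts were lower in the siGiver Ang II arrays, by a median of -0.22 on the log2 scale (-0.45 to -0.03), and higher in the siGiver PBS arrays, by a median of 0.43 (0.33 to 0.60). The array's 5S ribosomal RNA control read 8.88 and 8.93 in the siNTC and 7.71 and 7.77 in the siGiver Ang II arrays, against 8.15 and 8.24 in siNTC and 7.64 and 7.62 in siGiver PBS arrays. The part of these values in the results was not tested.

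With Ang II present, interferon-inducible genes were lower in siGiver cells, and immediate early genes, ERK feedback genes, contractile genes and cell cycle genes were higher. Of 11372 genes, 5036 (44.3%) were called, 2219 higher (19.5%) and 2817 lower (24.8%) in siGiver cells. The counts of every gene list below stand against these shares. Most of these differences were small, with a median size of 1.252-fold. At least 1.5-fold differences were found for 411 higher genes (3.61%) and 344 lower genes (3.02%), and at least 2-fold differences for 76 higher genes (0.668%) and 53 lower genes (0.466%). Levels that do not overlap between the 2 groups of 2 arrays were common: both siGiver arrays lay above both siNTC arrays in 3607 genes (31.7%) and below them in 4624 (40.7%). The median difference over all genes was -0.03 on the log2 scale, close to 0. Among 5584 further probe sets above the filter that carry no symbol or several, 1662 (29.8%) were called.

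Some of these differences changed with Ang II, and others were also large without it. The interaction, which is the siRNA difference with Ang II minus that with PBS, was called for 707 genes (6.22%). This count was 356 to 436 when any 1 array was left out and 1490 with trended and robust moderation of the variances. Of these, 600 were also called in the Ang II comparison. In 281 of them the gene was higher and in 280 lower, with a larger difference in that direction than in PBS, whereas 10 higher and 29 lower genes had an interaction of the opposite sign. Among the 76 genes at least 2-fold higher, 43 had a called interaction and 22 were also at least 2-fold higher in PBS. Among the 53 genes at least 2-fold lower, the corresponding numbers were 30 and 13.

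**Figure D1:**
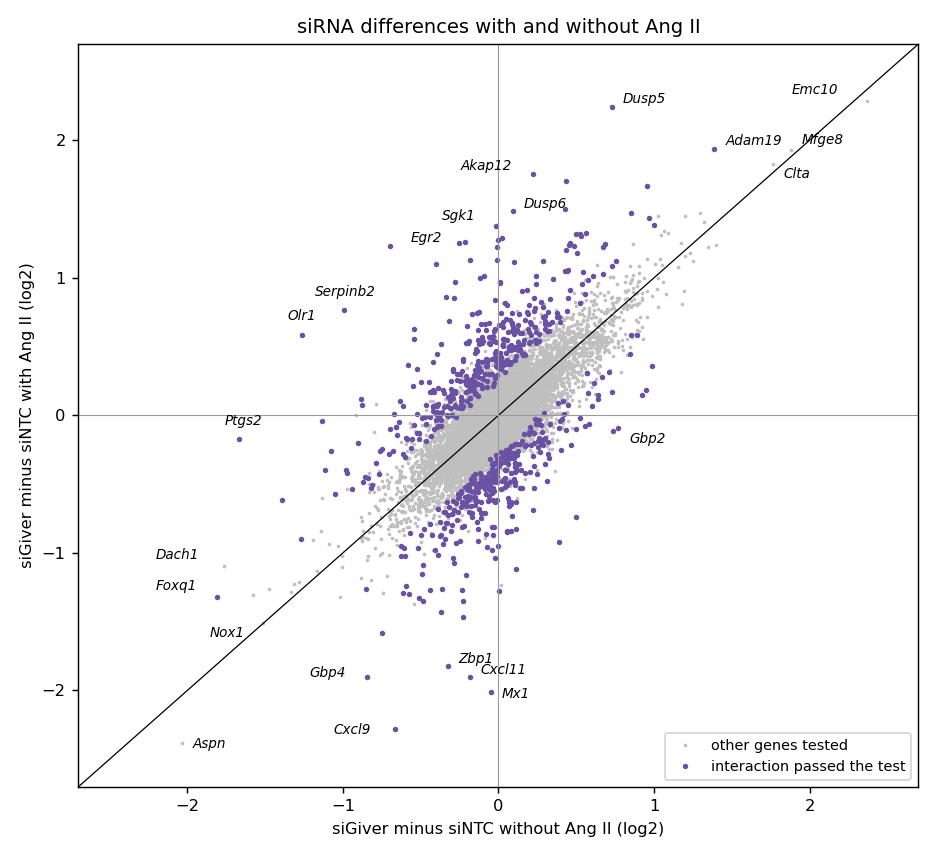
Each point is 1 of the 11372 genes tested, with its siGiver minus siNTC difference without Ang II on the x axis and with Ang II on the y axis, both in log2 units, and the diagonal marks equal differences. The 707 genes whose interaction passed the test are purple, and Mx1 and Cxcl11 lie near 0 in PBS and at -2.01 and -1.90 with Ang II, while Emc10 and Nox1 lie close to the diagonal.

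Interferon effectors, the antiviral proteins that interferon induces, were lower in siGiver cells almost throughout. Of 30 members tested, 27 were called lower and 0 higher, and 18 were lower by at least 1.5-fold. Their median difference was -0.64 with Ang II, against -0.06 without it. The 22 called interactions in this list were all in the same direction. Mx1, a GTPase that blocks viral replication, read 11.11 and 11.06 in the siNTC Ang II arrays and 9.02 and 9.12 in the siGiver Ang II arrays. The siGiver arrays were the lower pair and the groups did not overlap, with a difference of -2.01 ± 0.050 (4.04-fold, limma adjusted p = 1.85e-06). In PBS, Mx1 read 9.32 and 9.31 in siNTC and 9.25 and 9.28 in siGiver cells, so the siNTC Ang II arrays were the high pair among all 8.

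The same 4-group shape recurred in other members. Ifit3, an RNA-binding antiviral protein, stood at 11.41 and 11.35 in siNTC and 10.12 and 10.10 in siGiver Ang II arrays, a difference of -1.28 ± 0.054 (interaction -1.28, adjusted p = 0.000348). Isg20, an antiviral exonuclease, stood at 10.29 and 10.38 against 9.07 and 9.06, and Rtp4 at 11.11 and 11.10 against 9.84 and 9.82. In both genes the siNTC arrays were higher with no overlap. The ubiquitin-like modifier Isg15 differed by -0.95, its deconjugating enzyme Usp18 by -0.94, the antiviral enzyme Rsad2 by -0.86 and the oligoadenylate synthase Oas1a by -0.81. In 27 of the 30 genes both siNTC Ang II arrays lay above all 6 other arrays, a pattern that 13.2% of all tested genes had. It was not particular to the effectors. It held in 24 of 31 constitutive proteasome subunits (77.4%) and in 17 of 29 guanylate binding and antigen processing genes (58.6%). The effectors that were not called were Oas1b (-0.24 or below, its siGiver level being under the filter value), Eif2ak2 (-0.13) and Helz2 (-0.12). The 5S ribosomal RNA control was highest in the same pair of arrays, and its part in the pattern was not tested.

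**Figure D2:**
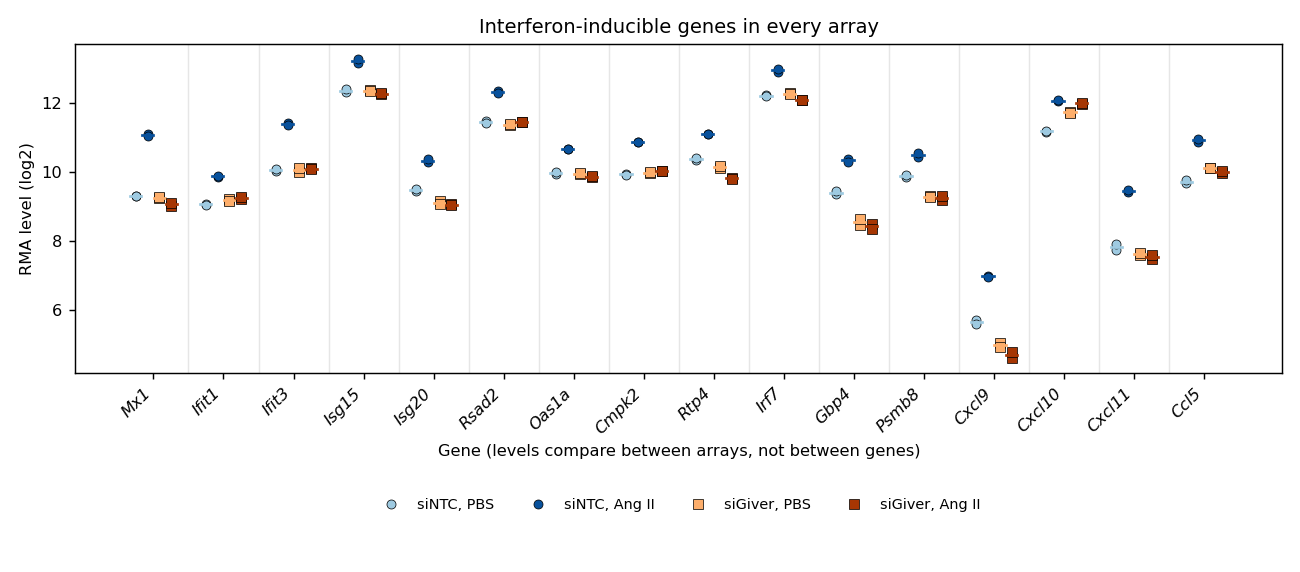
The y axis gives the log2 RMA level of 16 interferon-inducible genes, with 1 point for each of the 8 arrays and a line at each group's mean of 2. The siNTC Ang II arrays (dark blue) are the high pair for Mx1 and the other effectors, whereas for Cxcl10 they lie at 12.07 and 12.08, only 0.08 above the siGiver Ang II arrays.

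Promoters of these genes are shown because many members moved together. The sequence table of RefSeq (assembly GRCr8) matched 9481 of the 11372 genes tested, and the 250 bases before each start site were searched on both strands. The core of the interferon-stimulated response element was searched as GAAA, any 2 bases and GAAA, which reads TTTC, any 2 bases and TTTC on the other strand. It occurred in 12 of the 23 interferon effector promoters in the table (52.2%), in 8 of 48 promoters of genes at least 2-fold lower (16.7%), in 1 of 60 of genes at least 2-fold higher (1.67%) and in 246 of all 9481 (2.595%). It also occurred in 3 of 27 constitutive proteasome promoters (11.1%) and in 2 of 25 immediate early promoters (8%). The 250 bases before Mx1 held no match. A match describes these letters only and does not show a bound site. Windows of 60 bases are given 5′ to 3′ on the gene's strand, with the match in capitals:
Ifit3: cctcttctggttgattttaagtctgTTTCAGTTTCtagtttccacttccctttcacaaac
Rsad2: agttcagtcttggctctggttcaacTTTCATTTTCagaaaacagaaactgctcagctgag
Isg20: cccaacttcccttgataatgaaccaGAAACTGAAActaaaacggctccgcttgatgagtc
Ddx60: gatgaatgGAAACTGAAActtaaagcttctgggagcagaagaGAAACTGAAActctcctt
Oas1a: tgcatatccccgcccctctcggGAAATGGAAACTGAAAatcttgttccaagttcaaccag
Gbp4: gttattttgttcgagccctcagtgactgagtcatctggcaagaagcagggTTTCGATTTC
The windows lie in GRCr8 at chr1:241527257-241527316 on the plus strand (Ifit3), chr6:48788233-48788292 on the minus strand (Rsad2), chr1:142239942-142240001 on the plus strand (Isg20), chr16:33208861-33208920 on the minus strand (Ddx60), chr12:41330403-41330462 on the plus strand (Oas1a) and chr2:233978426-233978485 on the plus strand (Gbp4). Ddx60 and Oas1a each held 2 matches, overlapping in Oas1a, and the Gbp4 match ended at the base before the start site. Ddx60 and Gbp4 are not members of the effector list.

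Guanylate binding proteins and the antigen processing machinery, which interferon gamma induces, followed in part. Of 29 members tested, 18 were lower and 2 higher, with a median of -0.24. Gbp4 read 10.38 and 10.31 in siNTC and 8.50 and 8.37 in siGiver Ang II arrays (-1.90 ± 0.071), and Gbp7 11.75 and 11.65 against 10.34 and 10.37 (-1.35 ± 0.052). Their differences in PBS were -0.84 and -0.48, and both had called interactions. The immunoproteasome subunits Psmb8, Psmb9 and Psmb10, which replace constitutive subunits in stimulated cells, differed by -1.24, -0.73 and -0.81, and the peptide transporter subunit Tap1 by -0.66. Gbp2 went another way: its difference was 0.77 in PBS and -0.09 with Ang II (adjusted p = 0.138, not called; interaction -0.86, adjusted p = 0.000638). The class II genes RT1-Bb (0.52) and RT1-Db1 (0.35) were the higher members.

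Interferon-inducible chemokines recruit T cells and other leukocytes. Of 6 tested, 5 were lower. Cxcl11 read 9.43 and 9.48 against 7.49 and 7.61 (-1.90 ± 0.071), with the siNTC pair higher and no overlap. Cxcl9 read 7.01 and 6.97 against 4.63 and 4.79, a difference of -2.28 or below, since the siGiver mean lay under the filter value of 4.81. Ccl5 was lower with Ang II (-0.92), and its difference in PBS was 0.39 (interaction -1.31, adjusted p = 0.000348). Cxcl13 (-1.05) and Cxcl16 (-0.85) were lower too, with -0.84 and -0.83 in PBS. Cxcl10 stood at -0.08 and was not called.

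The signalling genes upstream of these effectors differed less. Of 26 receptors, kinases, transcription factors and nucleic acid sensors, 11 were lower, 1 was higher (0 or 1 without 1 Ang II array) and 14 were not called, with a median of -0.10. Zbp1, a sensor of Z-form nucleic acid, read 8.69 and 8.60 against 6.96 and 6.68 (-1.82 ± 0.087). Irf7 differed by -0.85, the RNA sensor gene Dhx58 by -0.93 and Stat2 by -0.52. The interferon beta gene Ifnb1 was dim, at 5.38 and 5.20 against 4.99 and 4.96 (-0.32 ± 0.10, called lower), and its difference in PBS was -0.36.

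Other inflammatory genes showed no shared direction. Of 25 cytokines, chemokines and adhesion molecules, 9 were lower, 5 higher and 11 not called, against 24.8% lower and 19.5% higher over all genes. Il6, a cytokine that Ang II induces in smooth muscle, read 9.21 and 9.17 in siNTC and 8.71 and 8.71 in siGiver Ang II arrays, lower (-0.48 ± 0.045) with no overlap. The monocyte chemokine gene Ccl2 read 13.68 and 13.63 against 13.38 and 13.35 (-0.29 ± 0.045). The interaction test called neither (0.07, adjusted p = 0.597, and 0.07, adjusted p = 0.566). Lcn2 (-0.87), the chemokine gene Cx3cl1 (-0.63) and the hyaluronan-binding protein gene Tnfaip6 (-0.61) were lower. Icam1, a leukocyte adhesion molecule, was higher by 0.53, Ccl20 by 0.58 and Cxcl12 by 0.44. Tnf, at 5.87 and 6.07 against 5.89 and 5.94, was not called.

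NF-kB feedback and target genes were called in either direction equally often, 4 of 19 higher and 4 lower. Over all genes the shares were 19.5% higher and 24.8% lower. Nfkbia, the inhibitor that retains NF-kB in the cytoplasm, was lower (-0.24), as was the mitochondrial superoxide dismutase gene Sod2 (-0.57), whereas the deubiquitinase gene Tnfaip3 was higher by 0.39. Among 18 cytokine and chemokine receptors, 7 were higher and 8 lower, of which 4 to 6 were called lower without 1 Ang II array. Il1rl1, the receptor of interleukin 33, read 9.61 and 9.61 against 11.30 and 11.25 (1.67 ± 0.044), with the siGiver pair higher and no overlap. The scavenging receptor gene Ackr3 was lower (-0.84), after 0.08 in PBS (interaction adjusted p = 0.000824). In the prostaglandin list, 6 of 20 were lower and 2 higher. Ptgs2, the inducible prostaglandin synthase, had a large difference in PBS only, -1.67, and with Ang II read 12.45 and 12.23 against 12.21 and 12.13 (-0.17 ± 0.088, not called; interaction 1.496, adjusted p = 0.000827).

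Immediate early genes, most of them encoding transcription factors, were higher in siGiver cells with Ang II. Of 35 tested, 24 were higher and 4 lower, with a median of 0.52 against 0.01 in PBS, and all 19 called interactions were toward a higher level in siGiver cells. Egr1 read 11.07 and 11.01 in siNTC and 12.03 and 11.99 in siGiver Ang II arrays, higher by 0.97 ± 0.047 (adjusted p = 1.22e-05). In PBS it read 10.31 and 10.33 in siNTC and 10.36 and 10.30 in siGiver cells, so the siGiver Ang II pair was the highest of the 4 groups and the PBS difference was 0.01. Egr2 read 8.83 and 8.74 against 10.01 and 10.07 (1.26 ± 0.059), with a PBS difference of -0.22 and an interaction of 1.48.

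Genes of the AP-1 family, whose products pair as FOS and JUN dimers, were among them. Fos read 7.38 and 7.33 against 8.40 and 8.30 (0.99 ± 0.076), Fosb 6.66 and 6.61 against 7.998 and 7.92 (1.32 ± 0.059) and Fosl1 8.996 and 8.94 against 10.48 and 10.46 (2.83-fold). In all 3 genes the siGiver arrays were the higher pair without overlap, and the interaction was called. Junb was higher by 0.52 with Ang II and stood at -0.37 in PBS, whereas Jund was lower (-0.48), with -0.39 in PBS. The orphan nuclear receptor genes split: Nr4a1 read 8.20 and 8.18 against 9.43 and 9.44 (1.251 ± 0.10) and Nr4a3 7.58 and 7.64 against 8.50 and 8.45 (0.86 ± 0.096), both higher, while Nr4a2 was lower (-0.35). The Nr4a3 difference in PBS was -0.34, and its interaction was 1.202 (adjusted p = 0.00336). Myc was higher by 1.06 and Klf5 by 0.99, and Klf2 was lower (-0.65). In 25 of the 35 genes both siGiver Ang II arrays lay above all 6 other arrays, against 13.2% of all tested genes.

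**Figure D3:**
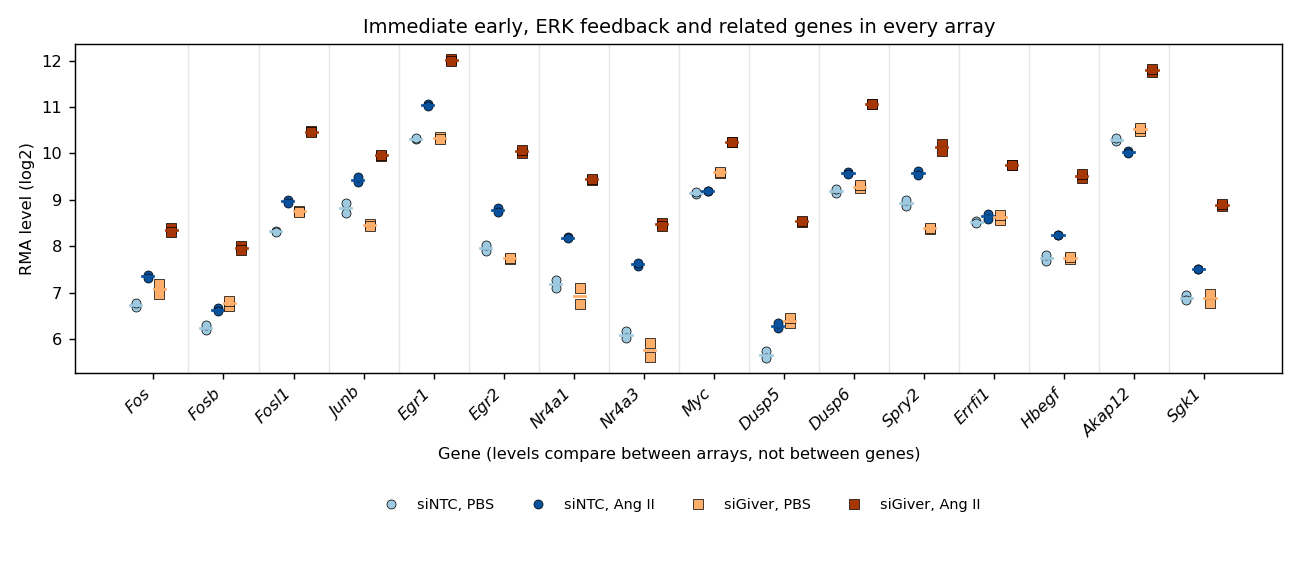
The y axis gives the log2 RMA level of 16 immediate early, ERK feedback and related genes, with 1 point per array and a line at each group's mean of 2 arrays. The siGiver Ang II arrays (dark orange) are the highest pair in every gene drawn, for Egr1 at 12.03 and 11.99 against 11.07 and 11.01 in siNTC Ang II arrays.

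The list of MAPK phosphatases and ERK feedback genes followed the same direction. It also holds genes that are not inhibitors, among them the receptor gene Epha2 and the transcription factor gene Etv4. Of its 25 members tested, 17 were higher and 3 lower, with a median of 0.37 against -0.09 in PBS, and 16 interactions were called. Dusp5, a nuclear ERK phosphatase, read 6.24 and 6.34 in siNTC and 8.52 and 8.55 in siGiver Ang II arrays, higher by 2.24 ± 0.067 (4.73-fold). Dusp6, the cytoplasmic ERK phosphatase, read 9.60 and 9.55 against 11.06 and 11.06 (1.48 ± 0.050). The siGiver pair was higher in both genes without overlap, and in PBS the differences were 0.73 and 0.09. Spry2, a Sprouty inhibitor of receptor tyrosine kinase signalling, differed by -0.54 in PBS and was higher by 0.56 with Ang II. The EGF receptor inhibitor gene Errfi1 was higher by 1.11, the receptor gene Epha2 by 0.75 and the urokinase receptor gene Plaur by 1.01. The lower genes were Dusp8 (-0.51), Etv4 and Phlda3, of which 1 or 2 were called when any 1 Ang II array was left out.

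The CArG box, the binding motif of serum response factor, was searched in the same 250 bases because early genes moved together. It occurred in 5 of 25 immediate early promoters in the table (20%), in 2 of 21 ERK feedback promoters (9.52%), in 0 of 23 interferon effector promoters and in 120 of all 9481 (1.27%). Among genes at least 2-fold higher it occurred in 3 of 60 promoters (5%), and among those at least 2-fold lower in 2 of 48 (4.17%). The cyclic AMP response element TGACGTCA occurred in 3 of the 25 immediate early promoters (12%), 2 of 21 ERK feedback promoters (9.52%) and 284 of all 9481 (2.995%). It was also found in 3 of 60 promoters of genes at least 2-fold higher (5%) and 1 of 48 of those at least 2-fold lower (2.08%). Of the 23 interferon effector promoters, 0 held it. The AP-1 pattern TGANTCA occurred in 5 of 23 interferon effector promoters (21.7%), 1 of 25 immediate early promoters (4%), 8 of 60 of genes at least 2-fold higher (13.3%) and 8 of 48 of genes at least 2-fold lower (16.7%), against 4.44% of all. The windows of 2 genes higher with Ang II are printed as above, with CArG boxes in capitals, at chr20:21054490-21054549 on the minus strand (Egr2) and chr1:262543672-262543731 on the plus strand (Dusp5) in GRCr8:
Egr2: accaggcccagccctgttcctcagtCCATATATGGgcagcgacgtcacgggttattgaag
Dusp5: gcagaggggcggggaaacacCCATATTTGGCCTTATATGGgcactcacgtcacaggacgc
Dusp5 held 2 adjacent boxes, which are printed as 1 run of capitals.

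Ligands and receptors that feed the ERK pathway differed gene by gene. Of 11 EGF family genes, 4 were higher and 1 lower. Hbegf, a ligand released from the cell surface by proteases, read 8.24 and 8.25 in siNTC and 9.48 and 9.55 in siGiver Ang II arrays (1.27 ± 0.057), and in PBS 7.69 and 7.82 in siNTC and 7.73 and 7.77 in siGiver cells. The siGiver Ang II pair was the highest of the 4 groups, and the interaction was 1.28 (adjusted p = 0.000365). The receptor gene Egfr was higher by 0.54 and Ereg by 0.60, while Adam17, a sheddase of these ligands, was lower (-0.33). Of 31 vasoactive receptors and related genes, 11 were higher and 5 lower. The Ang II receptor gene Agtr1a read 9.10 and 9.18 against 9.51 and 9.52, higher by 0.38 ± 0.046. The adrenergic receptor gene Adra1b (1.45), the sphingosine phosphate receptor genes S1pr3 (1.32) and S1pr2 (1.03) and the endothelin gene Edn1 (0.86) were higher.

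Among 25 G-protein and calcium feedback genes, 6 were higher and 4 lower (2 to 4 without 1 Ang II array). Akap12, a scaffold for protein kinase A and C, read 10.05 and 10.00 against 11.75 and 11.82 (1.76 ± 0.051), and the siGiver pair was again the highest of the 4 groups. Rgs2 (0.67) and Rgs16 (1.10), which speed the switching off of G proteins, and the calcineurin regulator gene Rcan1 (0.84) were higher. Of the same family, Rgs4 was higher by 0.21 and Rgs3 lower (-0.45, with -0.85 in PBS). Rgs9, Rgs10, Rgs12, Rgs14, Rgs17 and Rgs19 were not called. Outside the lists, the kinase gene Sgk1 read 7.52 and 7.51 against 8.88 and 8.90 (1.38 ± 0.069), with a PBS difference of -0.02 (interaction adjusted p = 0.000561).

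Growth factor genes were called in either direction, 12 of 39 higher and 5 lower, against 19.5% and 24.8% over all genes. Flt1, a receptor for vascular endothelial growth factor, was higher by 1.13 with Ang II and stood at -0.18 in PBS. Pdgfrb, the receptor that drives smooth muscle growth, was higher by 0.72, and Gdf15 was lower (-1.29 ± 0.067), at 9.97 and 9.97 against 8.63 and 8.73. Without 1 Ang II array, 7 to 10 of the list were higher and 3 or 4 lower. In the TGF-beta and BMP list 16 of 44 were higher and 8 lower. Tgfb3 read 10.27 and 10.29 against 11.72 and 11.72 (1.44 ± 0.042), Tgfb2 was higher by 0.66 and the BMP target Id1 by 0.44, and Inhbb was lower (-0.77). Of 23 Notch pathway genes 8 were higher and 1 lower, including the ligand gene Jag1 (0.55) and the target gene Hey1 (0.90).

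Nox1 had the largest difference of the 8 NADPH oxidase genes tested. This enzyme complex makes superoxide, and Nox1 and Nox4 are its catalytic subunits in smooth muscle. Nox1 read 8.97 and 8.88 in siNTC and 7.47 and 7.37 in siGiver Ang II arrays, with a difference of -1.51 ± 0.056 (2.84-fold, adjusted p = 4.67e-06), with the siGiver pair lower and no overlap. The difference in PBS was -1.51, and the interaction was 0.00 with an SE of 0.0791. Nox4 was higher, at 8.66 and 8.54 against 9.02 and 8.99 (0.41 ± 0.066). Of the 8 members tested, the membrane partner gene Cyba (-0.33) and Rac1 (-0.22) were also lower and Poldip2 (0.38) higher, while Noxo1, Ncf4 and Duoxa1 were not called. Among 36 antioxidant genes, 14 were higher and 10 lower, against 19.5% and 24.8% over all genes. Gstm1 (1.18), Txnrd1 (0.68) and Nqo1 (0.59) were higher, and Gpx4 (-0.67), Keap1 (-0.48) and Sod2 (-0.57) were lower.

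Contractile genes of smooth muscle were higher in siGiver cells. Of 41 tested, 33 were higher and 1, the intermediate filament gene Des (-0.42), was lower, with a median of 0.37 against 0.17 in PBS. Myh11, the smooth muscle myosin heavy chain, read 10.76 and 10.80 in siNTC and 11.60 and 11.62 in siGiver Ang II arrays (0.83 ± 0.044). Cnn1, calponin, read 10.80 and 10.81 against 11.57 and 11.57 (0.76 ± 0.049) and Acta2, smooth muscle actin, 11.54 and 11.48 against 11.89 and 11.87 (0.37 ± 0.044). The siGiver pair was higher in all 3 genes with no overlap. The focal adhesion gene Vcl was higher by 0.64 and Ldb3 by 1.12, both with a called interaction, while Tagln and Myl9 were not called. The fibroblast marker Dcn was higher in the same cells by 0.50, and its part in the result was not tested.

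Matrix genes were more often higher than lower. Of 23 collagen chains, 14 were higher and 0 lower (0 or 1 lower without 1 Ang II array), with a median of 0.25 against 0.02 in PBS. In 14 of them both siNTC Ang II arrays lay below all 6 other arrays, against 9.27% of all tested genes. Col6a3 read 5.10 and 5.39 against 6.63 and 6.37 (1.253 ± 0.12), and Col12a1 7.58 and 7.54 against 8.30 and 8.30 (0.74 ± 0.046), with 0.02 in PBS. The abundant fibrillar chain Col1a2 was not called. Of 27 proteoglycan genes, 17 were higher and 6 lower, among them the heparan sulfate proteoglycan gene Gpc6 (1.09) and Cspg4 (0.80). Aspn, a small proteoglycan that binds collagen, read 6.24 and 6.19 in siNTC and 3.83 and 3.84 in siGiver Ang II arrays, with a difference of -2.38 or below, since the siGiver level was under the filter value.

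Of 29 elastic fibre and crosslinking genes, 13 were higher and 4 lower. Mfge8, a glycoprotein of the arterial wall, read 10.73 and 10.83 against 12.66 and 12.77 (1.93 ± 0.056), and the collagen hydroxylase gene Plod2 was higher by 1.32. The crosslinking enzyme genes Lox (-0.40) and Loxl3 (-0.55) were lower. Of 35 proteases and inhibitors 13 were higher and 7 lower, led by the metalloprotease gene Adam19 at 8.65 and 8.71 against 10.59 and 10.63 (1.94 ± 0.058). Of 12 integrin genes 6 were higher and 1 lower. The fibronectin receptor chain Itga5 read 6.18 and 6.31 against 7.39 and 7.56 (1.23 ± 0.073), against 0.49 in PBS, and its interaction was called. Of 20 matricellular genes 6 were higher and 5 lower (1 to 3 lower without 1 Ang II array), and the sign differed from that in PBS for Ccn1 (0.54, -0.19 in PBS) and Tnc (0.37, -0.58 in PBS).

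Cell cycle genes were higher in siGiver cells with Ang II, with similar median differences in PBS. Of 43 mitosis and spindle genes, 40 were higher and 0 lower, and all 43 had both siGiver Ang II arrays above both siNTC Ang II arrays, against 31.7% of all tested genes. Their median difference was 0.51, and 0.57 in PBS. Mki67, a proliferation marker, read 9.52 and 9.40 against 10.26 and 10.21 (0.78 ± 0.057), and the cyclin gene Ccna2 8.66 and 8.43 against 9.49 and 9.43 (0.91 ± 0.094). Of 43 DNA replication genes 32 were higher and 2 lower (1 or 2 lower without 1 Ang II array), with Mcm7 at 0.68 and the ribonucleotide reductase gene Rrm1 at 0.75. Among G1 regulators 9 of 28 were higher and 7 lower, and 4 inhibitors of cyclin-dependent kinases were among the lower genes, including the following 3. Cdkn2b read 8.56 and 8.64 against 7.51 and 7.497 (-1.10 ± 0.054), Cdkn1a 11.69 and 11.70 against 11.02 and 10.97 (-0.70 ± 0.049) and Cdkn1b 10.97 and 10.88 against 10.34 and 10.28 (-0.61 ± 0.059). Of 16 p53 targets 9, with Cdkn1a, were lower and 3 higher, including Mdm2 (-0.29) on the lower side. Without 1 Ang II array, 5 or 6 of them were lower.

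**Figure D4:**
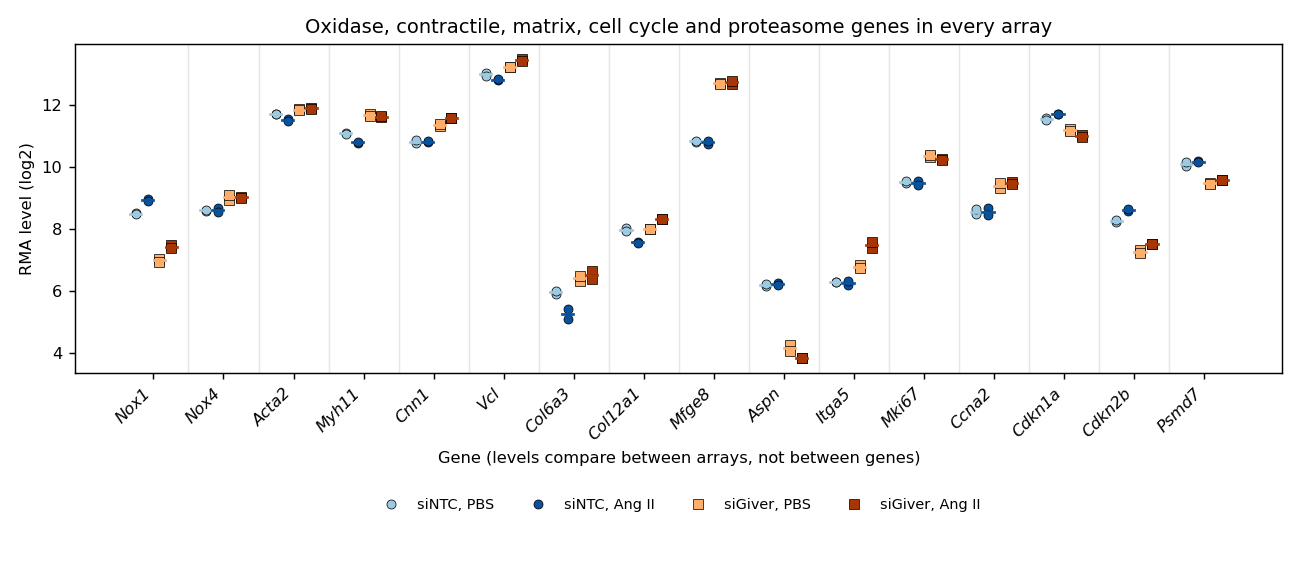
The y axis gives the log2 RMA level of 16 oxidase, contractile, matrix, cell cycle and proteasome genes, with 1 point per array and a line at each group's mean of 2 arrays. Nox1 lies lower in both siGiver groups, at 7.47 and 7.37 with Ang II, whereas Vcl and Col12a1 differ more with Ang II than in PBS.

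Protein turnover and mitochondrial genes differed by small amounts, and the members called were mostly lower. Of 31 constitutive proteasome subunits, 22 were lower and 3 higher, with a median of -0.22 against -0.12 in PBS. Psmd7 read 10.18 and 10.15 in siNTC and 9.56 and 9.56 in siGiver Ang II arrays (-0.61 ± 0.051, with -0.62 in PBS). Psma5 read 11.51 and 11.57 against 11.02 and 11.02 (-0.52 ± 0.045, with -0.21 in PBS). The siGiver pair was lower in both. Of 67 oxidative phosphorylation subunits, 24 were lower, 5 higher and 38 not called (median -0.10), against 24.8% lower and 19.5% higher over all genes. Among them Ndufs8 stood at -0.65 and, in the other direction, the ATP synthase gene Atp5f1a at 0.79. Without 1 Ang II array, 2 or 3 of this list were higher. Of 42 cytosolic ribosomal protein genes, 2 were higher and 0 lower, against 44.3% called of all genes, and the median was 0.02. Rpl30, 1 of the 2, was dim, at 4.57 and 4.72 against 4.98 and 5.04, its siNTC level being under the filter value. The median level of the list was 13.63 in siNTC and 13.68 in siGiver Ang II arrays. The highest value on any array was 14.61, and compression at high levels was not tested. The ribosomal count was 7 higher with cyclic loess, 11 with trended and robust moderation and 1 or 2 without 1 Ang II array.

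Metabolic and stress genes showed no single direction. In the glycolysis and hypoxia list 11 of 42 were higher and 13 lower, against 19.5% and 24.8% over all genes. Hk2, a hexokinase, read 5.34 and 5.19 against 6.90 and 7.03 (1.70 ± 0.12) and the glucose transporter gene Slc2a3 9.12 and 9.11 against 10.37 and 10.31 (1.23 ± 0.050). Both were higher in siGiver cells, and the oxygen sensor gene Egln3 was lower (-1.30). Of 30 cholesterol genes 7 were higher and 13 lower, among them the regulator gene Srebf1 (-0.51) and the exporter gene Abcg1 (-0.64). Of 40 stress and unfolded protein response genes 18 were higher and 8 lower, with Hyou1 at 0.64 and Nupr1 at -0.51 (4 to 7 lower without 1 Ang II array). Of 33 heat shock genes 10 were higher and 3 lower, led by Hspa1a (0.56, 0.03 in PBS), and 4 to 8 were higher and 1 or 2 lower without 1 Ang II array. Of 17 circadian genes 5 were higher and 5 lower, with the repressor gene Nfil3 at 1.01 and the activator gene Dbp at -0.65.

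**Figure D5:**
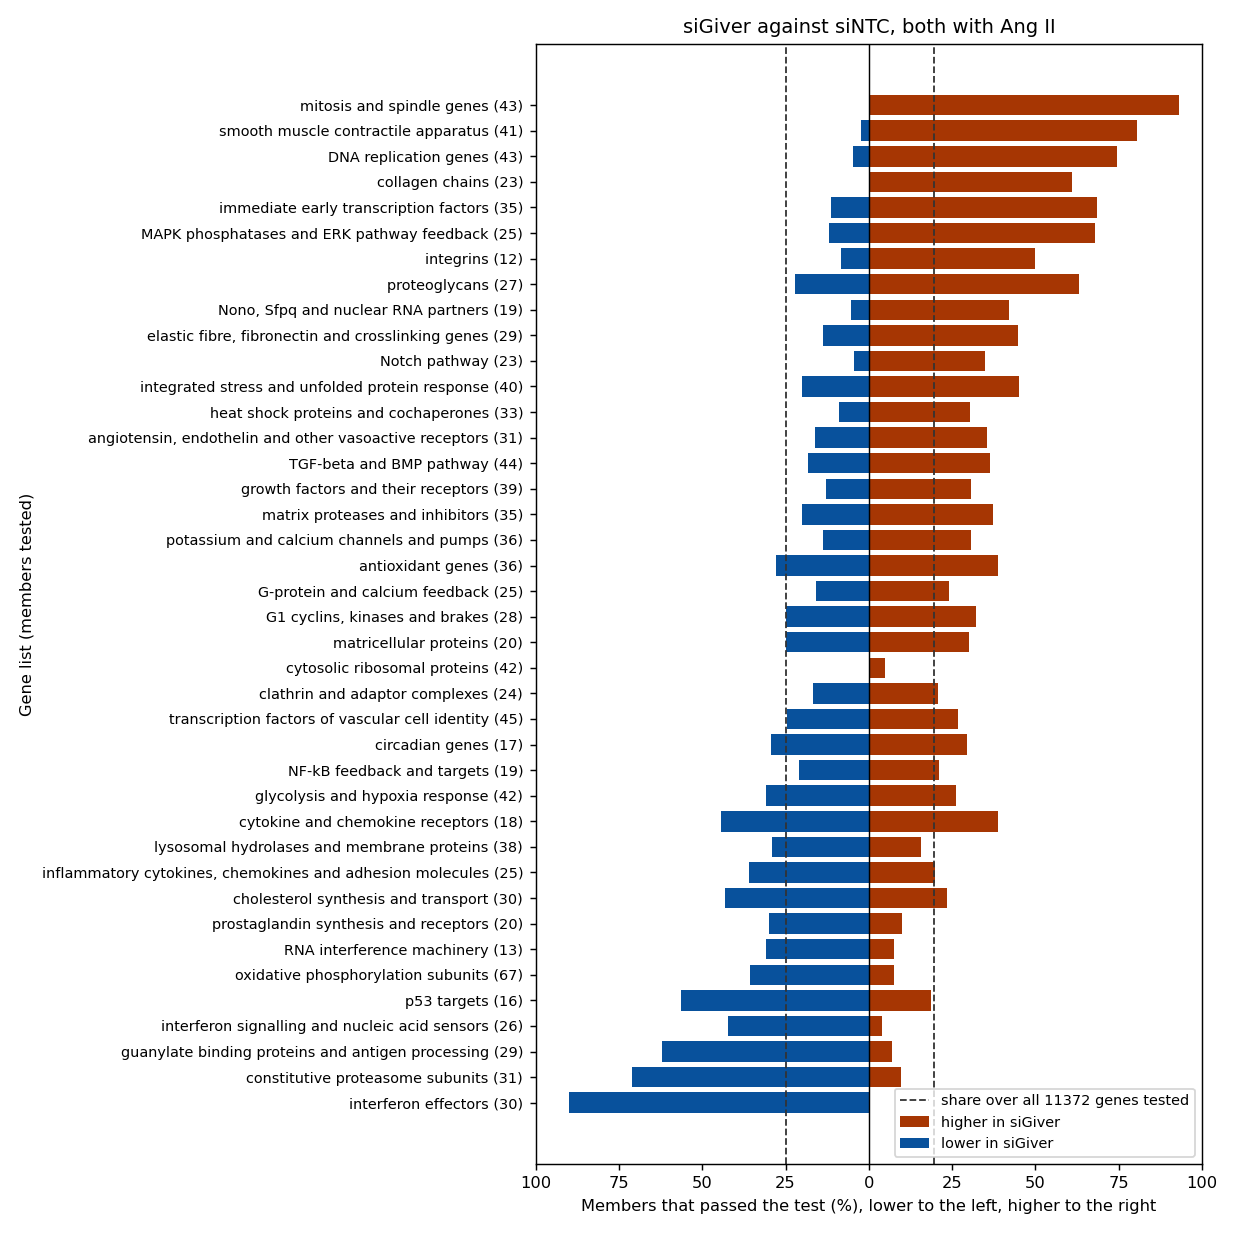
Bars give, for each gene list with at least 12 members tested, the percentage of members called higher (right, orange) or lower (left, blue) in siGiver cells with Ang II, and dashed lines give the same over all genes, 19.5% higher and 24.8% lower. Interferon effectors (27 of 30 lower) and mitosis genes (40 of 43 higher) stand at the ends, and many lists lie near the dashed lines.

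Transcription factors of vascular cell identity were called near the background, 12 of 45 higher and 11 lower. Foxq1 read 8.59 and 8.39 against 7.18 and 7.17 (-1.32 ± 0.065), and Dach1 was lower (-1.10). Runx1 (0.67) and Twist1 (0.55) were higher with Ang II and stood at -0.09 and -0.13 in PBS, with called interactions. Of 36 ion channel and pump genes 11 were higher and 5 lower, with the sodium-calcium exchanger gene Slc8a1 at 1.14 (1 to 5 lower without 1 Ang II array).

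Several of the largest differences were single members of a family and were of similar size without Ang II. Emc10, a subunit of the membrane protein insertase of the endoplasmic reticulum, read 8.04 and 8.19 in siNTC and 10.41 and 10.39 in siGiver Ang II arrays (2.28 ± 0.058, 4.87-fold), and differed by 2.37 in PBS. The other 9 subunits tested lay between -0.29 (Emc3) and 0.27 (Emc1). The Emc1 call was lost without replicate 1 of the siGiver (0.20) or replicate 2 of the siNTC Ang II arrays (0.22). Clta, a clathrin light chain, read 10.43 and 10.48 against 12.27 and 12.29 (1.83 ± 0.060, with 1.76 in PBS), and its partner Cltb was not called (-0.08). Of 24 clathrin and adaptor genes 5 were higher and 4 lower, against 19.5% and 24.8% over all genes. The acetyltransferase gene Naa60 was higher by 1.47 (1.29 in PBS), with 3 of 9 of its family higher and 1 lower, and the lysosomal peptidase gene Tpp1 by 1.23 (1.35 in PBS), with 6 of 38 lysosomal genes higher (3 or 4 without 1 Ang II array) and 11 lower.

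Genes that handle small or long RNAs were also examined. Of 13 RNA interference genes, 4 were lower (1 to 4 without 1 Ang II array) and 1 higher. Ago1, an Argonaute protein, read 8.20 and 8.23 against 8.74 and 8.82 (0.57 ± 0.049), and the Dicer partner gene Tarbp2 was lower (-0.27). Of 19 genes of Nono, Sfpq and other nuclear RNA-binding proteins, 8 were higher and 1 lower, against 5 to 7 and 0 or 1 without 1 Ang II array. The paraspeckle gene Pspc1 read 8.01 and 7.93 against 8.94 and 9.02 (1.01 ± 0.058), and Sfpq 9.88 and 9.88 against 10.31 and 10.18 (0.36 ± 0.064). The siGiver pair was higher in both, and only Pspc1 of these 2 had a called interaction. Of 10 reference genes, commonly used to normalise, 7 were not called, the transferrin receptor gene Tfrc was higher by 0.78 and Sdha (-0.25) and Ppib (-0.19) were lower. The Sdha and Ppib calls were lost without replicate 1 of the siGiver Ang II arrays or replicate 2 of the siNTC Ang II arrays, with values of -0.25 for Sdha and of -0.18 and -0.17 for Ppib.

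Further large differences fell outside the lists. Higher genes included the amino acid transporter gene Slc7a1, at 9.10 and 8.97 against 10.51 and 10.51 (1.47 ± 0.057), Sh3bgr (1.45), the scaffold gene Dcaf7 (1.41), the methylosome gene Wdr77 (1.39), the exchanger gene Slc24a3 (1.34), Prag1 (1.32), Mybl2 (1.31) and Zswim4 (1.30). Lower genes included the class I gene RT1-T24-3, at 11.07 and 11.06 against 9.46 and 9.51 (-1.58 ± 0.046), the helicase gene Ddx60 (-1.46), Tmem140 (-1.43), the inflammasome protease gene Casp1 (-1.37), Ly6e (-1.35), the purine oxidase gene Xdh (-1.33), Phlda2 (-1.29), Ints6l (-1.29), Rwdd2a (-1.27 or below, its siGiver level being under the filter value) and Fam241b (-1.26). Interactions were called for 4 of these higher genes (Slc7a1, Wdr77, Prag1 and Zswim4) and 7 of the lower ones (RT1-T24-3, Ddx60, Tmem140, Ly6e, Xdh, Rwdd2a and Fam241b).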

How the data were processed

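RNA from 8 samples was hybridised to Affymetrix rat arrays after one-cycle biotin labelling of 5 ug total RNA, per the labels' protocols. The deposited values are log2 expression levels per probe set, made by the authors with RMA in Partek, per the submitters' processing notes. No version or further setting is named there. Array medians lay between 6.15 and 6.19, and RMA compresses differences at low levels. The array count, not a read depth, sets the precision.

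The table holds 31099 probe sets. Of these 57 were controls, 20826 had 1 gene symbol, 436 had several and 9780 were not listed with one. Symbols were updated through gene identifiers for 20758 probe sets. Probe sets whose mean over the 8 arrays lay below the 30th percentile (4.81) were left out, the brightest remaining probe set per symbol was kept, and limma 3.58.1 in R 4.3.3 was fitted to all 4 groups together (residual df 4, prior df 3.53), with Benjamini-Hochberg adjustment over 11372 genes. The contrasts were siGiver minus siNTC with Ang II, the same in PBS, and their difference. Simulated data used the real gene means, variances drawn from the fitted prior and independent errors. Of 50 genes each changed 1.25-fold, 1.5-fold, 2-fold and 3-fold, 24, 44, 50 and 50 were called in the Ang II contrast. In the interaction contrast 3, 31, 48 and 50 were called, so an interaction that was not called may still be present. Of 11172 unchanged genes, 10 were called in the Ang II contrast and 12 in the interaction. The simulation held no effect shared by the genes of an array, and far fewer changed genes than were called in the data. It therefore does not give the error rate of the real calls.

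Named genes were, per direction, the 25 largest differences among called genes whose arrays did not overlap between the 2 groups. Lack of overlap was thus a condition for naming these genes and is no further support for them. The 10 largest interactions per direction and up to 6 members of each list and direction by p were also named. Acta2, Agtr1a, Nox1, Nr4a3, Egr1, Fos, Tnf, Il6 and Ccl2 and members of short lists and marker lists were added. The members and lists were chosen with earlier results of these data known, and Ccna2, Cltb, Eif2ak2, Gbp2, Helz2, Id1, Ifnb1, Isg15, Junb, Klf5, Oas1a, Oas1b, Psmb10, Ptgs2, Rsad2 and Spry2 were named after their values were seen. Deviations of same-numbered arrays from their group means correlated at -0.14 to 0.11, so replicate numbers were not taken to pair arrays. Alternatives covered the filter, probe set choice, scaling, moderation, a fold threshold, a replicate block, the Ang II arrays alone and each array left out.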

Additional observations from a re-analysis of the deposited data

Results flagged for a closer look

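The siRNA difference itself changed with Ang II for 707 genes by the interaction test of limma, and the 10 largest interactions in each direction among genes also called with Ang II are given here, as the difference with Ang II minus the difference in PBS on the log2 scale. Toward higher levels in siGiver cells these were Fam110c (1.93), Olr1 (1.85), Serpinb2 (1.76), Akap12 (1.53), Dusp5 (1.52), Nr4a1 (1.503), Rgs16 (1.502), Egr2 (1.48), Sgk1 (1.40) and Dusp6 (1.39). Toward lower levels they were Mx1 (-1.96), Cxcl11 (-1.72), Cxcl9 (-1.61), Zbp1 (-1.497), Ccl5 (-1.31), Ifit3 (-1.28), Ddx60 (-1.24), Ifi27l2b (-1.24), Mpeg1 (-1.23) and Ly6e (-1.12).

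In Olr1, a receptor for oxidised lipoprotein, and Serpinb2, an inhibitor of plasminogen activators, the sign turned. Olr1 read 6.48 and 6.74 in siNTC and 5.38 and 5.32 in siGiver PBS arrays, and 7.31 and 7.27 against 7.98 and 7.78 with Ang II. Serpinb2 read 6.06 and 6.02 against 4.99 and 5.10 in PBS and 7.26 and 6.96 against 7.84 and 7.91 with Ang II. In both genes the siGiver arrays were the lower pair in PBS and the higher pair with Ang II.

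Outside the genes with 1 symbol, the 5S ribosomal RNA control differed by -1.16 between siGiver and siNTC Ang II arrays. Of the probe sets with no symbol or several, 1662 were called, 794 higher and 868 lower.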

How the results depend on the processing

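The 50 largest differences named kept their direction and their call in all 894 values recomputed under 18 alternatives. These genes were picked as the largest differences in the same arrays, so this stability was likely from the outset. Of 7764 values for 433 named genes, 7305 kept call and direction, 457 lost the call (188 of them under a test against a 1.2-fold difference) and 1 reversed: Timp2, lower (-0.15) by its brightest probe set, was 0.67 as the mean of its probe sets. Tnf was called lower only with that mean (-0.26). Against a 1.2-fold difference, 1280 genes were called, 671 higher and 609 lower, with 111 interactions, while the counts at 2-fold (76 and 53) were as before. The interaction count, 707 in the fit reported, was 467 with no filter, 1490 with trended and robust moderation and 356 to 436 with 1 array left out, lowest without replicate 1 of the siNTC Ang II arrays and highest without replicate 2 of the siGiver PBS arrays. Leaving out 1 array gave 3953 to 5028 genes called in the Ang II comparison. With a replicate block, 4953 genes and 553 interactions were called. Among ribosomal genes, 7 were called higher with cyclic loess and 11 with trended and robust moderation. Levels near the array's floor bound the differences of dim genes.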

Other observations

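The 3 control probe sets for GAPDH, a glycolytic enzyme often used as a reference, were higher by 0.51 to 0.61 on the log2 scale in siGiver than in siNTC Ang II arrays, whereas those for beta-actin differed by -0.02 to 0.01. All 3 GAPDH probe sets were also higher without Ang II. The one at the 3 prime end read 12.44 and 12.55 in siNTC and 13.14 and 13.13 in siGiver PBS arrays. The 18 probe sets for hybridisation controls, which are added after labelling, differed by -0.18 to -0.04 with Ang II and by 0.04 to 0.24 in PBS.

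Among probe sets without a listed symbol, 1393119_at read 5.90 and 5.20 in siNTC and 7.86 and 8.06 in siGiver Ang II arrays, a difference of 2.41, against 0.22 in PBS. Probe set 1392791_at differed by 2.05 with Ang II and by 0.42 in PBS. In the other direction 1375422_at read 11.63 and 11.47 against 9.39 and 9.14 (-2.29), with -2.02 in PBS, and 1385571_at differed by -1.66 with Ang II and by -0.28 in PBS.

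The brightest probe set stood for each gene. Among 2287 dimmer probe sets of called genes, 1869 had the same sign, and 61 were called in the opposite direction. For genes called at 2-fold or more, 45 of 47 dimmer probe sets had the same sign.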
